A study of Homo sapiens with 18 samples.

Results

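The genes described here are 9 interferon-induced genes, IFIT1, IFIT3, ISG15, MX1, IFI6, OAS1, IRF1, IRF9 and IFI35, followed after siRNA transfection of U251 cells. They were taken by symbol from the annotation of the array, with every probe set (a group of short probes that reports 1 transcript) naming that gene alone. They are 9 of 11963 genes with a probe set naming 1 gene. IRF9 had 1 further probe set that names several genes, and it was not read. Where a gene had more than 1 probe set, its level was read from the brightest over the 18 arrays. U251 is an established human glioblastoma cell line, and total RNA was profiled on a human expression array at 6, 24 and 48 h. The siMPS1 groups received a siRNA named for MPS1, another name of the mitotic checkpoint kinase gene TTK; the siNeg groups received a siRNA named siNegative; and the Control groups were untreated cells of the same line. Transfections used 2 pmol of siRNA, and 250 ng of RNA was labelled per array. Each of the 9 groups had 2 arrays, and since the labels do not say whether these came from separate cultures, the p-values measure only the spread between the arrays of a group, which may be technical. The Control groups had no transfection with carrier alone, so siNeg minus Control holds the carrier and the siRNA together.

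Interferons are secreted proteins that cells release when sensors inside or on the cell meet foreign nucleic acid, long double-stranded RNA among them. They bind receptors whose kinases belong to the JAK family; type I interferon leads to a complex holding IRF9 that binds the interferon-stimulated response element (ISRE) of promoters, and interferon gamma acts through a different element, the gamma-activated site (GAS). Transfected siRNA is known to be able to trigger this response in some cells, which is why the induced genes are read as a check of siRNA experiments.

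The members fall into effectors and regulators. IFIT1 and IFIT3 are cytoplasmic RNA-binding partners, IFIT1 recognising foreign 5′ ends; ISG15 is a ubiquitin-like protein that is attached to other proteins; MX1 is a dynamin-like GTPase that blocks viral particles; OAS1 makes the 2′-5′ oligoadenylates that activate RNase L; and IFI6 is a small membrane protein linked to cell survival. IRF9 is the DNA-binding subunit of the complex above, IRF1 is a transcription factor induced chiefly by interferon gamma, and IFI35 is an interferon-induced leucine zipper protein. The promoter sequences of 5 members are shown because they hold the elements through which interferon acts, 4 with the first element's core and IRF1 with the second's. Each is the 250 bases before the gene's start, from RefSeq on GRCh38.p14, written 5′ to 3′ on the gene's strand. In the first 4, capitals mark the ISRE core, which is GAAA and GAAA parted by any 2 bases, or on the other strand TTTC and TTTC parted by any 2 bases; in IRF1, capitals mark the GAS core, TTC and GAA parted by any 3 bases.
IFIT1, chr10:89392373-89392622, plus strand: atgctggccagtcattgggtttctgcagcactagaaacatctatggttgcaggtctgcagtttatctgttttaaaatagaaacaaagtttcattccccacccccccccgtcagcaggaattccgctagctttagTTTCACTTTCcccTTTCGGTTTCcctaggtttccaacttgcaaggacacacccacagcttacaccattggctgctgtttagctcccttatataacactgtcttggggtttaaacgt
IFIT3, first of 2 promoters, chr10:89327747-89327996, plus strand: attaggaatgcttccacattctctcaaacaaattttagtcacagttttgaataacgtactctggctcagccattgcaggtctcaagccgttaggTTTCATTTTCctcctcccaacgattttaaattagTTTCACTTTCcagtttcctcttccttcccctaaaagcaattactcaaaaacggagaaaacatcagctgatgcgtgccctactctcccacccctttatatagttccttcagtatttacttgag
ISG15, chr1:1013247-1013496, plus strand: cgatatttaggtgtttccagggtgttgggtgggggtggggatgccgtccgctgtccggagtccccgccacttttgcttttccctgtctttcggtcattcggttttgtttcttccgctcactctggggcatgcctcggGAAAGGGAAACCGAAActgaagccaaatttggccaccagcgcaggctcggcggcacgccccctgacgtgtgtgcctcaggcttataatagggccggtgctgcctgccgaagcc
IFI6, chr1:27672193-27672442, minus strand: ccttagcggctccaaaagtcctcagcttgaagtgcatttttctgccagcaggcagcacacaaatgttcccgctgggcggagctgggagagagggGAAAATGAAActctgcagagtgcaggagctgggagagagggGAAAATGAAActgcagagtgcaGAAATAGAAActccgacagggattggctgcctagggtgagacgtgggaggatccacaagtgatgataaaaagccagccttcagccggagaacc
IRF1, chr5:132490774-132491023, minus strand: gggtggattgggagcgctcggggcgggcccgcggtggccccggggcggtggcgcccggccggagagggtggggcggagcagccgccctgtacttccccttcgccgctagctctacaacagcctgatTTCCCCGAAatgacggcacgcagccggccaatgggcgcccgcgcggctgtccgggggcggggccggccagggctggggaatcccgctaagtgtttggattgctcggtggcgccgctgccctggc

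All 9 members matched the promoter table, with 12 promoters. Matches were counted on both strands over the 250 bases before and 50 bases after a start. The ISRE core was found in 5 of 9 members, or in 7 of the 12 promoters, against 3.57% of 35116 promoters in the table. It occurred 2 times in IFIT1, 2 times in each promoter of IFIT3, 2 times in ISG15 where both matches overlap, 3 times in IFI6, and in 2 of 3 MX1 promoters. The GAS core was found in OAS1, IRF1, IRF9, IFI35 and 1 promoter of MX1, or in 5 of the 12 promoters, against 7.66% of all promoters in the table. Its match in that MX1 promoter overlaps the ISRE core there. These are matches of letters in a window, and nothing in these arrays reads binding at them. The patterns also fix the spacing. The promoters of OAS1 and IFI35 each hold GAAA and GAAA parted by 1 base. The MX1 promoter without an ISRE core holds TTTC and TTTC parted by 1 base. This spacing is not counted here as an ISRE core in any promoter.

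Signals are given on the linear MAS5 scale, which the deposited log2 values were turned back to, and differences are of log2(signal + 3), a scale that understates the change of dim genes. The tests were limma's over all 18 arrays with Benjamini-Hochberg adjustment over the genes of each comparison, and a gene is called at an adjusted p under 0.05. The main test dropped the dimmest 40% of probe sets and covered 7828 genes, among them IFIT3, ISG15, IFI6, IRF1, IRF9 and IFI35. IFIT1, MX1 and OAS1 were too dim for it, and their tests come from the fit without that filter over 11963 genes.

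The arrays were scaled alike, with a trimmed mean signal of 100.122 to 100.134 and a median signal of 19.7 to 23.6, and replicate arrays correlated at 0.933 to 0.948 over the deposited log2 values of all probe sets. TTK, the gene targeted by siMPS1, had signals of 13.8 to 34.6 on the 6 siMPS1 arrays and of 37.4 to 137 on the other 12, and its differences from Control were -1.36, -1.98 and -2.22 at 6, 24 and 48 h (limma adjusted p = 0.000532, 5.17e-06 and 5.54e-07). Of 10 glial markers 8 passed the filter, with VIM at a mean signal of 3856 and GFAP at 13.7. None of 9 blood and none of 3 endothelial markers passed. Of 5 epithelial markers KRT8 and KRT18 passed, at mean signals of 259 and 750. The blood markers summed to 37.1 to 73.6 on siMPS1 arrays, 29.7 to 48.9 on siNeg arrays and 22.0 to 57.8 on Control arrays. The glial markers summed to 7150 to 10347 on siMPS1 arrays, 7681 to 8897 on siNeg arrays and 6815 to 9038 on Control arrays. The actin probe sets, which read the 3′ against the 5′ end of the message and so RNA integrity and labelling, differed by 0.90 log2 in siMPS1 at 48 h and by 0.12 to 0.43 log2 in the other 8 groups.

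The members differed widely in level. ISG15 had signals of 120 to 277 and IFI6 of 59.4 to 291, above the array median on all 18 arrays. IRF1, at 28.4 to 55.6, was also above it throughout, and IRF9 (20.0 to 44.9) and IFI35 (17.8 to 45.3) fell below it on 1 array each. IFIT3, at 7.34 to 35.6, was below the median on 6 arrays. IFIT1 ranged from 0.638 to 28.0 and was below the median on 13 arrays, while MX1 (1.31 to 19.5) and OAS1 (1.61 to 12.0) were below it on all 18. The second OAS1 probe set was dimmer still, at 0.701 to 10.1. Levels of different genes come from different probes and are not compared further.

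**Figure D1:**
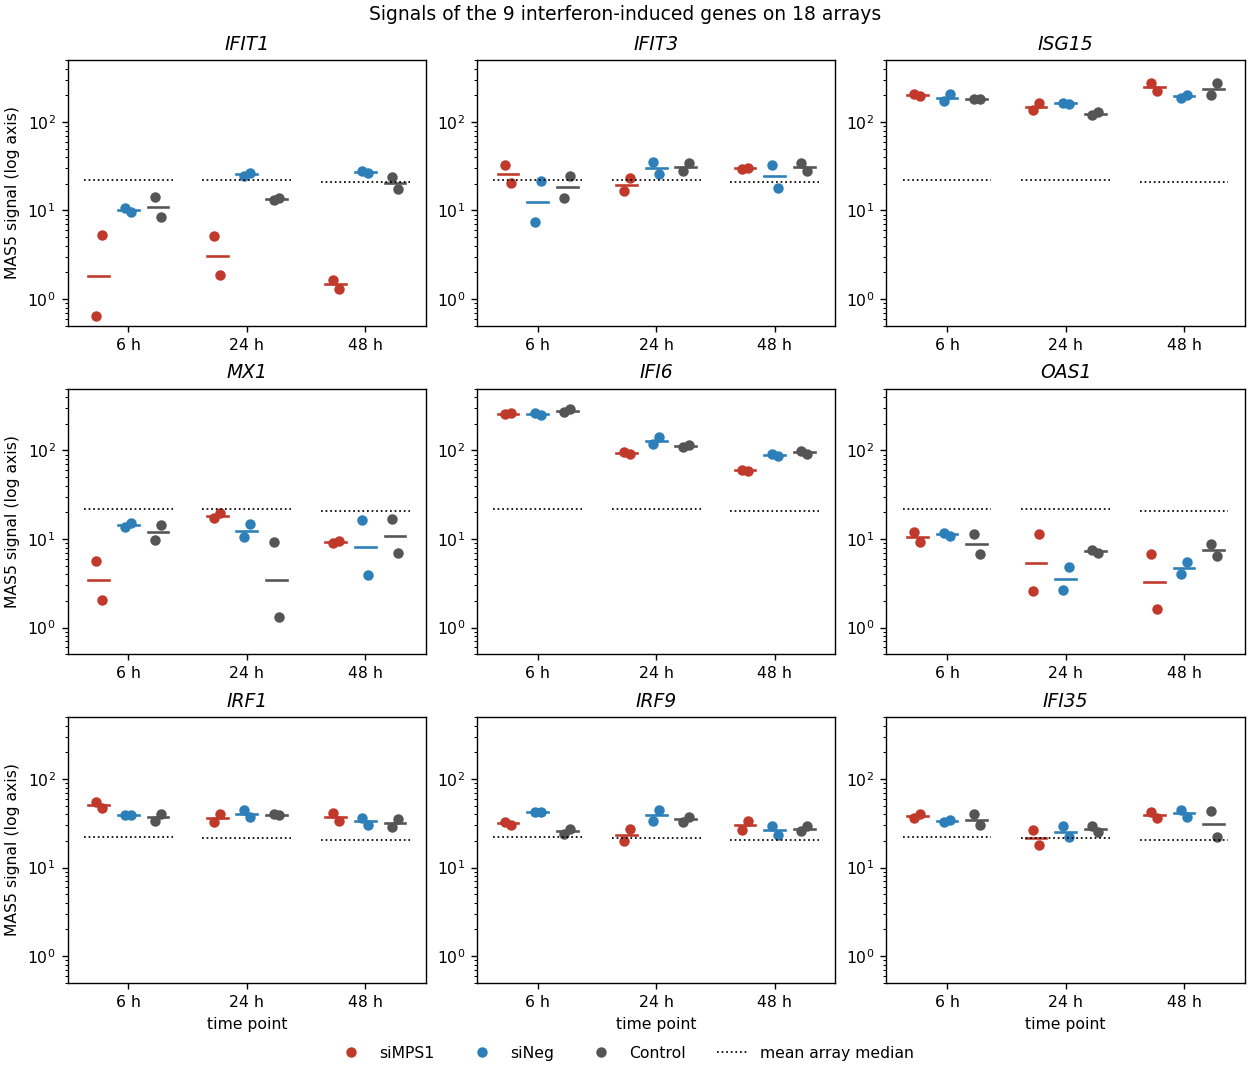
Signal of each of the 9 genes on all 18 arrays (log axis), by time point, with siMPS1, siNeg and Control from left to right; points are arrays, short bars are geometric means of 2 arrays, and the dotted line is the mean of the array medians. IFIT1 lies at 0.638 to 5.25 on the 6 siMPS1 arrays and at 8.33 to 28.0 on the other 12, and IFI6 is lower at 24 and 48 h than at 6 h in every group.

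siNeg against Control asks whether a siRNA with its carrier, by itself, moved interferon-induced genes. None of the 6 members in the main test was called at any time, against 3.82% of all genes tested at 6 h, 0.933% at 24 h and 12.9% at 48 h (limma). At an unadjusted p under 0.05 the counts were 1, 2 and 0 members, and the fit without the filter called none of the 9. With an array left out in turn the number of genes called, 299, 73 and 1012 of 7828, fell to 61 at 6 h (without replicate 2 of siNeg), 4 at 24 h (without replicate 2 of Control) and 440 at 48 h (without replicate 1 of siNeg), and the members called stayed at 0 apart from 1 at 48 h, ISG15, without Control replicate 1 (-0.49, adjusted p = 0.0390). The median difference of the 9 members was 0.04, 0.14 and -0.11 at 6, 24 and 48 h, beside medians of 0.02, -0.02 and 0.01 over all genes tested.

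IRF9 came nearest to a call. Its signals at 6 h were 42.3 and 42.6 in siNeg cells and 23.8 and 27.5 in Control cells. Both siNeg arrays were above both Control arrays, with a difference of 0.67 (SE 0.20, limma adjusted p = 0.0782). At 24 h the siNeg signals of 33.7 and 44.9 overlapped the Control signals of 32.9 and 37.4, and at 48 h those of 29.9 and 23.4 overlapped 25.8 and 29.5, with differences of 0.14 and -0.06.

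ISG15 signals at 24 h were 165 and 160 in siNeg cells and 120 and 128 in Control cells. The groups did not overlap, and the difference of 0.38 (SE 0.13) had an adjusted p of 0.159 (limma). At 6 h ISG15 had 172 and 206 in siNeg cells against 183 and 184 in Control cells, and at 48 h it had 188 and 204 against 203 and 277, overlapping both times. The difference at 48 h was -0.27 (limma adjusted p = 0.198), so neither the higher value at 24 h nor the lower one at 48 h was called. The change of ISG15 in siNeg minus Control between 24 and 48 h was -0.65 (SE 0.19, limma adjusted p = 0.0324). It was the only member called among 6 in that comparison, where 10.3% of all genes were, and it was not called without the filter (adjusted p = 0.0563) or without the intensity trend (0.0885). It was called without 12 of the 18 arrays in turn, and not without any of the siNeg and Control arrays at 24 h, siNeg replicate 1 at 48 h or Control replicate 2 at 48 h. Without the last, which held the 277, the change was -0.43 (adjusted p = 0.159).

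IFIT1 had 10.8 and 9.51 in siNeg cells against 14.3 and 8.33 in Control cells at 6 h. At 24 h it had 24.4 and 26.7 in siNeg cells against 13.2 and 13.9 in Control cells, and at 48 h 28.0 and 26.8 against 23.7 and 17.4. The siNeg arrays were above the Control arrays at both later times, by 0.78 and 0.38, with an SE of 0.39 and adjusted p-values of 0.480 and 0.695 (limma, no filter). The 95% interval at 24 h ran from -0.05 to 1.62, so a difference of that size was within what 2 arrays a group leave unresolved.

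The other members gave no call either. IFI6 was within 0.21 of Control at each time, with 119 and 141 in siNeg cells against 108 and 116 in Control cells at 24 h as its widest separation (adjusted p = 0.304, limma). IFIT3, IRF1 and IFI35 overlapped Control at all 3 times. MX1 at 24 h had 10.4 and 14.9 in siNeg cells against 9.23 and 1.31 in Control cells, a difference of 1.09 with an SE of 0.53 that rests on the Control array at 1.31 (adjusted p = 0.459, limma, no filter). OAS1 at 24 h had 2.64 and 4.84 in siNeg cells against 7.60 and 6.94 in Control cells, and at 48 h 3.98 and 5.49 against 8.73 and 6.36, below both Control arrays each time (-0.63 and -0.44, adjusted p = 0.685 and 0.686, limma, no filter). The second OAS1 probe set went the other way at 24 h, with 3.73 and 4.68 in siNeg cells against 1.68 and 0.829 in Control cells, and at 48 h its signals of 0.895 and 10.1 in siNeg cells overlapped 0.701 and 0.997 in Control cells. The intervals of these dim genes are wide, as the plot of differences from Control shows.

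**Figure D2:**
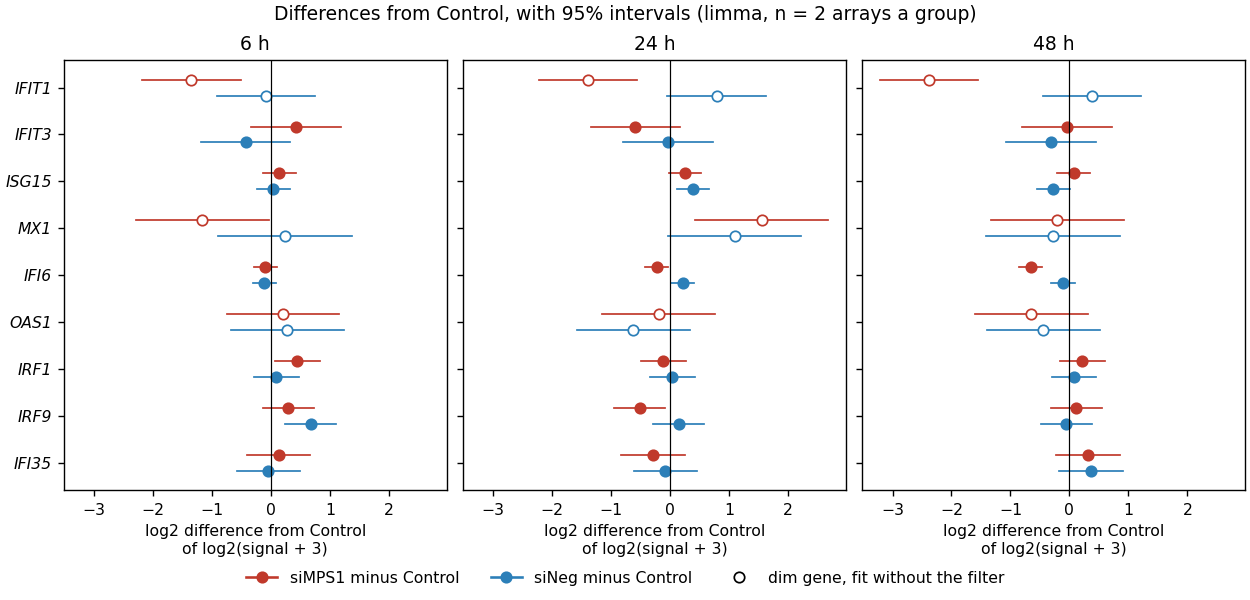
Difference from Control of log2(signal + 3) for each of the 9 genes at 6, 24 and 48 h, with siMPS1 drawn above siNeg; points are differences of group means of 2 arrays, lines are 95% intervals from limma, and open points are the 3 dim genes from the fit without the filter. IFIT1 in siMPS1 is at -1.35, -1.40 and -2.38, while IFI6 in siMPS1 at 48 h is at -0.66 with a narrow interval.

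siMPS1 against Control gave called decreases of IFI6 and of IFIT1, and no member was called higher. In the main test 0 of 6 members were called at 6 h, 0 at 24 h and 1 at 48 h, where 16.6%, 12.7% and 27.5% of all genes were called (limma); at an unadjusted p under 0.05 the counts were 1, 2 and 1. Without the filter 1, 1 and 2 of the 9 members were called, all lower, where 8.43%, 6.6% and 16% of 11963 genes were called. The members' share of calls was below that of all genes at each time in the main test and above it at each time without the filter, where 1 call fewer would put it below. The number of genes called in the main test, 1297, 993 and 2153, fell to 478 without replicate 2 of siMPS1 at 6 h, 448 without replicate 2 of Control at 24 h and 1415 without replicate 2 of siMPS1 at 48 h, and the members' counts were the same without each array. The median difference of the 9 members was 0.14, -0.23 and -0.05 at 6, 24 and 48 h, beside 0.04, -0.02 and 0.05 over all genes tested.

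IFIT1 was low on every siMPS1 array. At 6 h it had 0.638 and 5.25 in siMPS1 cells, against 14.3 and 8.33 in Control cells. At 24 h it had 5.10 and 1.88 in siMPS1 cells and 13.2 and 13.9 in Control cells. At 48 h it had 1.63 and 1.31 in siMPS1 cells and 23.7 and 17.4 in Control cells. All 6 siMPS1 arrays lay below all 12 siNeg and Control arrays, an ordering met by 41 of 11963 genes, or 0.343%; 4 genes lay above in the same way. Of those 41, IFIT1 was the only member or other listed interferon pathway gene, and TTK itself was among them.

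The differences of IFIT1 from Control were -1.35, -1.40 and -2.38 at 6, 24 and 48 h, each with an SE of 0.39 (limma adjusted p = 0.0447, 0.0435 and 0.000547, no filter). Against siNeg they were -1.26, -2.18 and -2.77 (adjusted p = 0.0885, 0.00307 and 0.000107, limma, no filter). The 48 h differences were called in all 7 other settings tried and without each of the 18 arrays in turn. The 6 h and 24 h differences from Control were called in 4 and 2 of those 7 settings, with adjusted p-values up to 0.188 and 0.160. Left out in turn, replicate 2 of siMPS1 at 6 h and both siMPS1 arrays at 24 h kept the 6 h call and every other array ended it, with adjusted p-values up to 0.288. For the 24 h call both siMPS1 arrays at 6 h, replicate 1 of siMPS1 at 24 h and both Control arrays at 6 h kept it and every other array ended it, up to 0.284. Against siNeg at 24 h the call was lost in a fit of the compared arrays alone (adjusted p = 0.0608) and without replicate 2 of siMPS1 at 24 h (0.0511). Signals this far below the array median are close to the bottom of the scale, and the size of the fold is uncertain. An array reads a whole culture, and fewer cells carrying a transcript cannot be told apart from less of it per cell.

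IFIT3, a neighbour of IFIT1 on chromosome 10 whose protein binds IFIT1, did not show that pattern. At 6 h it had 32.5 and 20.6 in siMPS1 cells against 14.0 and 24.4 in Control cells. At 24 h it had 16.5 and 23.1 against 28.3 and 34.1, below both Control arrays, with a difference of -0.59 (SE 0.36, limma adjusted p = 0.325). At 48 h it had 29.7 and 29.9 against 33.9 and 28.1, a difference of -0.05 with a 95% interval of -0.81 to 0.71.

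IFI6 was the member with the smallest error. At 6 h it had 256 and 266 in siMPS1 cells and 269 and 291 in Control cells, a difference of -0.10 (adjusted p = 0.496, limma). At 24 h it had 97.2 and 92.4 in siMPS1 cells and 108 and 116 in Control cells, a difference of -0.23 (adjusted p = 0.118). At 48 h it had 60.1 and 59.4 in siMPS1 cells and 99.8 and 92.2 in Control cells. The siMPS1 arrays were the lower pair each time, and at 48 h IFI6 fell to 63.4% of Control, a difference of -0.66 (SE 0.09, limma adjusted p = 5.84e-05) that was called in all 11 alternatives fitted, a 2-fold minimum aside, and without each of the 18 arrays. The percentage is of signal + 3, and the difference is short of a 2-fold change.

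The widening of IFI6 with time was itself tested. The change of siMPS1 minus Control was -0.56 between 6 and 48 h (SE 0.13, limma adjusted p = 0.0117) and -0.42 between 24 and 48 h (adjusted p = 0.0390); IFI6 was the only member called among 6 in each, where 11.4% and 14.5% of all genes were called. No member was called in the change between 6 and 24 h, where 17.9% of genes were. The 24 to 48 h change lost its call without any 1 of the siMPS1 and Control arrays at 24 and 48 h or the siNeg arrays at 6 h, with adjusted p-values up to 0.124, and it was lost with the replicate number as a block (0.0516) and with only the compared groups (0.103). The 6 to 48 h change was -0.41 with arrays centred on their medians (adjusted p = 0.0572) and lost its call without Control replicate 1 at 6 h (-0.50, 0.0575). For siNeg the changes between 6 and 24 h and between 6 and 48 h called none of the 6 members, where 5.77% and 4.74% of genes were called. At 48 h the siMPS1 arrays also had the actin 3′ to 5′ difference of 0.90 log2 given above, and its part in the 48 h values was not tested.

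In Control cells alone IFI6 had 269 and 291 at 6 h, 108 and 116 at 24 h, and 99.8 and 92.2 at 48 h. It fell by 1.30 between 6 and 24 h (SE 0.09, limma adjusted p = 3.55e-09). ISG15 fell by 0.55 over the same interval and was higher by 0.92 at 48 h than at 24 h (adjusted p = 0.00227 and 0.00012, limma). These were the only members called among 6 in untreated cells, 2 between 6 and 24 h and 1 between 24 and 48 h, where 43.1% and 19.6% of all genes were called. The drift of IFI6 with time in culture was larger in size than its difference between siMPS1 and Control at any of the 3 times.

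The regulators and the remaining effectors were not called against Control. IRF1 at 6 h had 55.6 and 47.1 in siMPS1 cells against 33.7 and 40.2 in Control cells. Both siMPS1 arrays were above, by 0.44 (SE 0.18, limma adjusted p = 0.0964), and at 24 and 48 h the groups overlapped. IRF9 at 24 h had 20.0 and 27.6 in siMPS1 cells against 32.9 and 37.4 in Control cells, a difference of -0.52 (SE 0.20, adjusted p = 0.108, limma), with 0.29 at 6 h and 0.11 at 48 h. ISG15 differed by 0.14, 0.25 and 0.07 at 6, 24 and 48 h, and IFI35 by 0.12, -0.29 and 0.32, with limma adjusted p-values from 0.240 to 0.776. For ISG15 both siMPS1 arrays were above both Control arrays at 6 h, at 206 and 198 against 183 and 184. The same held at 24 h, at 135 and 163 against 120 and 128, and the groups overlapped at 48 h. MX1 had 5.66 and 2.04 in siMPS1 cells against 9.69 and 14.5 in Control cells at 6 h, and 17.1 and 19.5 against 9.23 and 1.31 at 24 h. MX1 was thus below both Control arrays at the first time and above both at the second, and the change between these times was 2.72 (SE 0.75, limma without the filter, adjusted p = 0.0323; 9.58% of 11963 genes called). That change was called in 5 of 7 other settings and without 12 of the 18 arrays in turn, and was lost without replicate 2 of siMPS1 at 6 h, either siMPS1 array at 24 h, either Control array at 6 h or replicate 2 of Control at 24 h. MX1 was below the array median throughout. OAS1 overlapped Control at all 3 times.

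siMPS1 against siNeg compares 2 transfected groups, so that transfection is common to both sides; it shares the siMPS1 arrays with the comparison above. In the main test 0 of 6 members were called at 6 h, 2 at 24 h and 1 at 48 h, all lower in siMPS1 cells, where 7.7%, 10.9% and 29.2% of all genes were called (limma). The number of genes called, 603, 857 and 2284, fell to 80 without replicate 2 of siMPS1 at 6 h, 360 without replicate 1 of siNeg at 24 h and 1655 without replicate 2 of siMPS1 at 48 h. Without the filter the percentages over all genes were 3.24, 6.03 and 17.2, and the members called were IFIT1, as given above, and IFI6 at both 24 and 48 h. IFI6 at 24 h had 97.2 and 92.4 in siMPS1 cells against 119 and 141 in siNeg cells, and at 48 h 60.1 and 59.4 against 91.3 and 86.3. The groups did not overlap, and the differences were -0.44 (SE 0.09, adjusted p = 0.00533) and -0.55 (adjusted p = 0.000247, limma). The 24 h call was lost in a fit of the compared arrays alone (adjusted p = 0.0572) and without replicate 2 of siNeg (0.0930) or of siMPS1 (0.0503) at 24 h.

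IRF9 at 24 h had 20.0 and 27.6 in siMPS1 cells against 33.7 and 44.9 in siNeg cells, a difference of -0.66 (SE 0.20, limma adjusted p = 0.0465). This call was kept when replicate 2 of siMPS1 at 24 h or any of the 4 siMPS1 and siNeg arrays at 48 h was left out and lost without any other array, and the adjusted p reached 0.316 without replicate 2 of siNeg at 24 h. It was also lost with no filter (0.0939) and with only the compared groups (0.144). ISG15 at 48 h went the other way, with 275 and 226 in siMPS1 cells against 188 and 204 in siNeg cells, a difference of 0.34 (SE 0.13, adjusted p = 0.0580, limma) that passed the threshold with 60% of probe sets left out (0.0493) and with only the compared groups (0.0363). IFIT3 at 6 h was 0.86 higher (SE 0.36, limma adjusted p = 0.157). Its signals of 32.5 and 20.6 in siMPS1 cells overlapped those of 7.34 and 21.6 in siNeg cells. IRF1 differed by -0.15 to 0.36 and IFI35 by -0.20 to 0.17, and neither MX1 nor OAS1 was called.

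The levels were also ranked over the 9 groups. IFIT1 was highest in siNeg at 48 h and siNeg at 24 h, and its 3 lowest groups were the siMPS1 groups, each overlapping its neighbour in the order. IFI6 was highest in the 6 h groups, and siMPS1 at 48 h was its lowest group, not overlapping the next, siNeg at 48 h. ISG15 was lowest in Control at 24 h. IRF1 was highest in siMPS1 at 6 h, which did not overlap the next group. The dim MX1 was highest in siMPS1 at 24 h, not overlapping the next group, and lowest in siMPS1 at 6 h. For IFIT3, IRF9, IFI35 and OAS1 every group overlapped its neighbour in the order.

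The members did not move as a block. Over the 18 arrays the 36 pairs of members had Pearson correlations of log2(signal + 3) from -0.46 to 0.61 with a median of -0.005, and 17 were positive; the arrays share times, treatments and scaling, so these are descriptions. Many of these pairs hold IFIT1, MX1 or OAS1, which were too dim for the main test. Among the 6 brighter members alone the correlations ran from -0.45 (IFIT3 with IFI6) to 0.44 (IFI6 with IRF1). Against the mean of the 6 brighter members, each standardised, the 6 other genes with the highest correlation over the 18 arrays were TRAK1 (r = 0.81), PTBP1 (0.80), BST2 (0.78), DACH1 (0.77), PTOV1 (0.76) and PAQR4 (0.76). Spearman's rho for these was between 0.51 and 0.82, and r without the 2 arrays farthest from the median of that mean was between 0.50 and 0.75. BST2, or tetherin, which holds budding virus at the cell surface, was the only listed interferon gene of the 6.

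The rest of the pathway was read from 127 further listed genes, of which 108 had a probe set naming 1 gene and 80 were bright enough to test. No interferon passed: of 8 listed ligands 5 were on the array and none was bright enough. In siNeg against Control 2 listed genes were higher and 0 lower at 6 h, 1 and 0 at 24 h, and 5 and 9 at 48 h. These are 2.5%, 1.25% and 17.5% of the 80, beside the percentages over all genes given above. In siMPS1 against Control 11 were higher and 3 lower at 6 h, 2 and 7 at 24 h, and 6 and 11 at 48 h, or 17.5%, 11.2% and 21.2%. The direction at 6 h depended on the scaling: with arrays centred on their medians 3 listed genes were higher and 11 lower, and over all genes that scaling turned 727 higher and 570 lower into 233 and 2013, with the median of all genes shifted by -0.19. At 24 h it gave 4 higher and 5 lower listed genes.

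**Figure D3:**
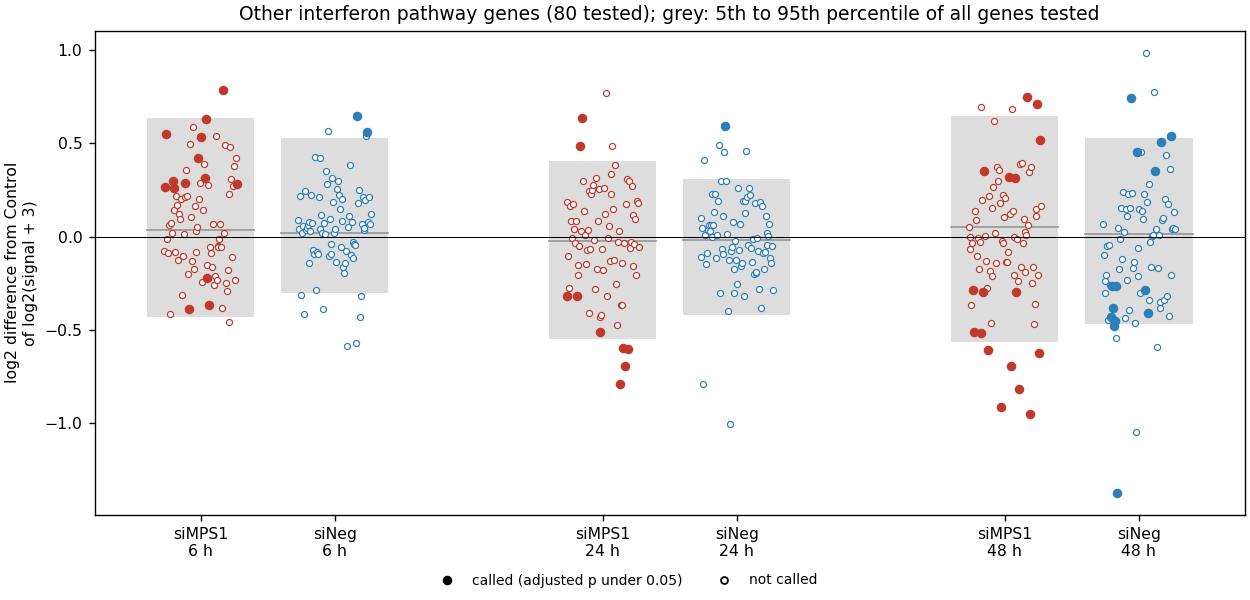
Difference from Control of log2(signal + 3) for the 80 other interferon pathway genes tested, at 6, 24 and 48 h, with siMPS1 left of siNeg; each point is a gene, filled where called, and grey boxes span the 5th to 95th percentile of all 7828 genes with their median as a line. Called points lie on both sides of 0 in siMPS1 at every time, and the lowest called point is IFI27 in siNeg at 48 h at -1.37.

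Of 40 calls named below, 11 were kept in every alternative, a 2-fold minimum aside, and without each array: IFI27 and HLA-B in siNeg at 48 h, and in siMPS1 cells TAPBP and BST2 at 6 h, IFI16 and ADAR at 24 h, and TLR4, TYK2, PTPN11, PLSCR1 and TAPBP at 48 h. The others were lost in at least 1 alternative (21 calls) or without at least 1 array (27), and are given as values that depend on these choices.

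Among the 52 tested induced genes outside the members, siNeg at 48 h had 2 higher and 9 lower, or 21.2%, beside 12.9% of all genes, of which 534 were higher and 478 lower. The lowest was IFI27, a mitochondrial interferon-induced protein, with 74.1 and 68.3 in siNeg cells against 192 and 186 in Control cells. The difference was -1.37 (SE 0.08, limma adjusted p = 1.46e-08). In siMPS1 cells at 48 h IFI27 had 155 and 152, a difference from Control of -0.29 (adjusted p = 0.0154) that was lost without any 1 of the 4 arrays compared. The class I antigen-presenting genes HLA-B (-0.43), HLA-F (-0.48) and HLA-C (-0.27) and the scramblase PLSCR1 (-0.29) were also lower in siNeg at 48 h, and LGALS3BP, a secreted glycoprotein, was higher (0.45), with adjusted p-values from 0.00191 to 0.0113 (limma). HLA-F was -0.15 with its probe sets averaged (adjusted p = 0.460) and lost its call without replicate 2 of siNeg or replicate 1 of Control at 48 h (up to 0.0834). HLA-C was lost without replicate 2 of siNeg and PLSCR1 without replicate 1 of siNeg or of Control, both also with only the compared groups (0.0550 and 0.0516), and LGALS3BP was lost without replicate 1 of siNeg or replicate 2 of Control (up to 0.0730). TAPBP, which loads peptides onto class I molecules, was higher in siNeg at 6 h (0.65, adjusted p = 0.0240), and not called without any 1 of the 4 arrays compared (up to 0.156) or without the intensity trend (0.0589).

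Of the same 52 genes in siMPS1 cells, 10 were higher and 2 lower at 6 h, 2 and 5 at 24 h, and 5 and 6 at 48 h, or 23.1%, 13.5% and 21.2%, beside 16.6%, 12.7% and 27.5% of all genes; centring on medians gave 2 higher and 7 lower at 6 h and 4 and 4 at 24 h. For siMPS1 minus siNeg, 0 of the 52 were called at 6 h, 2 were higher and 4 lower at 24 h, and 10 and 4 at 48 h. These are 0%, 11.5% and 26.9%, beside 7.7%, 10.9% and 29.2% of all genes. Against Control at 6 h TAPBP (0.79), BST2 (0.55), N4BP1 (0.54), LGALS3BP (0.42), HLA-B (0.30) and HLA-C (0.26) were the higher genes named by rank of p. The 4 other than TAPBP and BST2 were lost with median centring, at 0.34 for N4BP1, 0.23 for LGALS3BP, 0.10 for HLA-B and 0.07 for HLA-C (adjusted p = 0.114 to 0.400), and with averaged probe sets N4BP1 was 0.09 (0.767) and HLA-C 0.13 (0.273). Without the intensity trend N4BP1, LGALS3BP and HLA-B were lost, and N4BP1 also with no filter (0.0516). All 4 were also lost without replicate 2 of siMPS1 at 6 h or without 1 of the Control arrays at 6 h, and N4BP1 without replicate 1 of siMPS1 too, with adjusted p-values up to 0.213. BST2 had 291 and 315 in siMPS1 cells against 209 and 203 in Control cells. TAPBP crossed over, at 45.2 and 48.7 in siMPS1 cells against 73.6 and 81.9 in Control cells at 24 h (-0.69; adjusted p = 0.0604 without replicate 2 of Control), and was higher again at 48 h (0.75).

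At 24 h IFI44, a further interferon-induced protein, had 460 and 457 in siMPS1 cells against 281 and 307 in Control cells. It rose by 0.64 (SE 0.08, limma adjusted p = 3.17e-05) and was also higher at 48 h (0.35). With the probe sets of IFI44 averaged these were 0.34 and 0.30 and neither was called (adjusted p = 0.0944 and 0.104). IFI16, a nuclear DNA sensor, was higher by 0.49 at 24 h. LGALS3BP (-0.51), the peptide transporter TAP1 (-0.60) and ADAR (-0.32), which edits double-stranded RNA, were lower. LGALS3BP lost its call without replicate 2 of siMPS1 or of Control at 24 h (up to 0.0649), and TAP1 without either siMPS1 array or replicate 2 of Control (up to 0.148). At 48 h PLSCR1 had 318 and 335 in siMPS1 cells against 550 and 509 in Control cells, a difference of -0.69 (SE 0.07, adjusted p = 1.61e-06), HLA-G was lower (-0.52) and the tryptophanyl-tRNA synthetase WARS1 higher (0.52). With averaged probe sets HLA-G was -0.18 (adjusted p = 0.0968) and WARS1 0.08 (0.656). Without replicate 1 of Control at 48 h HLA-G was -0.36 (0.125) and WARS1 0.40 (0.137), and WARS1 was 0.34 without replicate 1 of siMPS1 (0.180) and not called without the intensity trend (0.0538).

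Of 28 tested signalling genes 3.57%, 3.57% and 10.7% were called in siNeg at 6, 24 and 48 h, and 7.14%, 7.14% and 21.4% in siMPS1 cells, beside the shares of all genes given above. In siNeg the kinase TYK2 was higher at 6 and 48 h (0.56 and 0.54), the interferon gamma receptor chain IFNGR2 at 24 h (0.60), and SOCS2 (0.35), a brake on JAK signalling, and IRF3 (0.74), a factor that switches on interferon genes, at 48 h. In siMPS1 cells IFNGR2 was lower at 6 h (-0.39), and PIAS1, a brake on the pathway, was higher (0.63). At 24 h SOCS3 (-0.79) and TLR4 (-0.60), a membrane sensor, were lower. At 48 h TLR4 (-0.95), JAK2 (-0.91), the ISG15 protease USP18 (-0.62), the phosphatase PTPN11 (-0.30) and the double-stranded RNA sensor kinase EIF2AK2 (-0.28) were lower and TYK2 was higher (0.71). TLR4 at 48 h had 44.7 and 38.2 in siMPS1 cells against 84.8 and 80.6 in Control cells (limma adjusted p = 0.000689). JAK2 is dim, at 12.3 and 8.39 in siMPS1 cells against 20.7 and 23.1 in Control cells (adjusted p = 0.0267). 

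Most of these signalling calls rest on single choices or arrays. With averaged probe sets PIAS1 was 0.05 (adjusted p = 0.783) and SOCS3 -0.39 (0.295), and SOCS3 was also lost with no filter (0.0514) and with only the compared groups (0.176). TYK2 in siNeg at 6 h and TLR4 in siMPS1 cells at 24 h each held in 6 of 11 alternatives, and TLR4 was -0.28 without replicate 2 of siMPS1 at 24 h (0.381). USP18 held without 7 of the 18 arrays in turn and was lost with a pseudocount of 1, with no filter and with no trend (up to 0.0914). JAK2 was lost with no filter (0.0575) and without replicate 2 of siMPS1 or either Control array at 48 h (up to 0.190), and TYK2 in siNeg at 48 h with only the compared groups. In siMPS1 cells EIF2AK2 and IFNGR2 were each lost without any 1 of the 4 arrays compared and PIAS1 without 2 of them. In siNeg IRF3 was lost without any 1 of the 4, IFNGR2 without 3, and SOCS2 and TYK2 at 48 h without 2, with adjusted p-values up to 0.223, and both IFNGR2 calls were lost without the intensity trend.

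**Figure D4:**
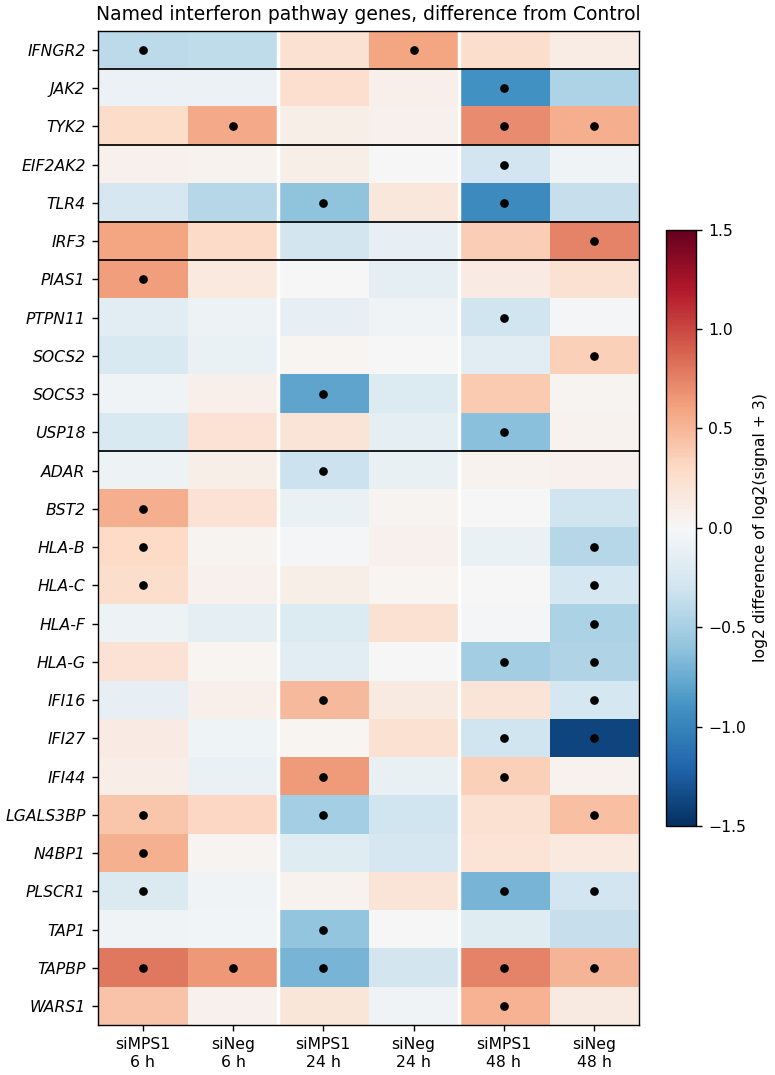
Difference from Control of log2(signal + 3) for the named pathway genes, grouped from top to bottom as receptor, kinases, sensors, IRF, brakes and other induced genes, with siMPS1 left of siNeg at each time; red is higher, blue is lower, and a dot marks a call at an adjusted p under 0.05. TAPBP has 5 dots of mixed sign, and the darkest cell is IFI27 in siNeg at 48 h at -1.37.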

How the data were processed

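Total RNA of U251 cells was read on 18 arrays of 22277 probe sets. The deposited log2 values are MAS5 signals, per the submitters' processing notes; base 2 is taken here because such values give a trimmed mean near 100 on every array when raised as powers of 2. From these, log2(signal + 3) was computed, 62 control probe sets and the dimmest 40% of the others (by mean) were dropped, and the brightest probe set of each gene was kept (7828 genes). Of the 22215 other probe sets, 19064 name 1 gene, 1043 several and 2108 none.

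Group means were fitted with limma 3.58.1 (R 4.3.3) on all 18 arrays with an intensity trend, and p-values were adjusted by Benjamini-Hochberg within each comparison. On simulated data for siMPS1 minus Control at 48 h over 7828 genes, 85.5% of 200 genes changed by a log2 of 1 were recovered, with 8 false calls. Smaller changes were not simulated, nor were genes too dim for the filter, such as IFIT1, MX1 and OAS1. The number of arrays limits the precision. Alternatives were pseudocounts of 1 and 11, quantile normalization, median centring, no filter or 60% left out, averaged or single probe sets, no trend, a replicate block, only the compared groups, each array left out in turn, and a fold change of at least 2. Named pathway genes are each called signalling gene and the 6 called induced genes with the smallest p. The members and lists were chosen with earlier results of these data known.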

Additional observations from a re-analysis of the deposited data

Results flagged for a closer look

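ISG15 stood out because its difference between siNeg and Control was not the same at 24 and at 48 h: the change was -0.65 (limma adjusted p = 0.0324), from 0.38 at 24 h to -0.27 at 48 h. It was not called with no filter (0.0563) or with no intensity trend (0.0885), and was -0.43 without Control replicate 2 at 48 h. Mean log2(signal + 3) went from 7.37 to 7.64 in siNeg cells and from 6.99 to 7.91 in Control cells. IFI6 stood out because its difference between siMPS1 and Control was not the same at different times. The change was -0.42 between 24 and 48 h (adjusted p = 0.0390; 0.0516 with the replicate number as a block and 0.103 with only the compared groups) and -0.56 between 6 and 48 h (adjusted p = 0.0117, limma).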

How the results depend on the processing

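Counts of members called, taken with the value reported first, moved as follows. For siMPS1 minus Control at 6, 24 and 48 h (0, 0 and 1), a pseudocount of 11 gave 1, 1 and 2, no filter gave 1, 1 and 2, median centring gave 1 at 6 h, and a fold change of at least 2 gave 0 at 48 h. For siMPS1 minus siNeg at 24 and 48 h (2 and 1), 60% of probe sets left out gave 1 and 2, only the compared groups gave 0 and 2, a fold change of at least 2 gave 0 and 0, and a pseudocount of 11 and no filter each gave 2 at 48 h; with an array left out in turn the counts ran from 0 to 2 and from 1 to 2. The change of siNeg minus Control gave 2 with median centring between 6 and 24 h (0), and between 24 and 48 h (1) it gave 0 with no filter, with no intensity trend and with a 2-fold minimum, and 0 to 1 with an array left out. The change of siMPS1 minus Control gave 1 with no filter, averaged probe sets and no trend between 6 and 24 h (0; 0 to 1 with an array left out); 0 with the replicate block, only the compared groups and a 2-fold minimum between 24 and 48 h (1; 0 to 1); and 0 with median centring and a 2-fold minimum between 6 and 48 h (1; 0 to 1). siNeg minus Control at 48 h gave 0 to 1 with an array left out, the 1 without Control replicate 1, and in Control alone a 2-fold minimum gave 1 between 6 and 24 h (2) and 0 between 24 and 48 h (1). No called difference of a member or a named gene changed sign, but the split of higher and lower calls in siMPS1 minus Control at 6 h turned with median centring, over all genes and over the listed pathway genes. Replicate numbers did not pair the arrays: correlations of same-numbered arrays' deviations ran from -0.088 to 0.102 over 9 pairs of groups. The replicate block changed 2 of 34 counts, that of IFI6 above (adjusted p = 0.0516) and all genes called in siNeg minus Control at 24 h (31 against 73). Over all genes, siNeg minus Control at 24 h called 3 with no trend, 42 with no filter, 134 with median centring, 138 with 60% left out, 111 with averaged probe sets, 162 with single probe sets, between 111 and 138 with only the compared groups, and 4 (without Control replicate 2 at 24 h) to 108 with an array left out. At 6 h it called 299, and 1129 with median centring, 195 with no filter, 506 with single probe sets and 145 with no trend. siMPS1 minus Control called 1297 at 6 h and 2246 with median centring, and 993 at 24 h and 598 with only the compared groups. siMPS1 minus siNeg called 603 at 6 h, 388 with no filter and 169 with no trend, and 857 at 24 h and 502 with only the compared groups. Median centring moved the median of all genes by -0.15 for siNeg and -0.19 for siMPS1 against Control at 6 h, and IFI6 in siMPS1 at 6 h was then called lower (-0.29, adjusted p = 0.0352). The causes of these moves were not tested. MX1, OAS1 and, in siMPS1 cells, IFIT1 lie so low that 2 arrays a group resolve only large differences.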
